A study of Mus musculus with 6 samples.

Results

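Mouse hearts from animals given either of a pair of anticoagulants, pooled as 1 treated group, were compared with hearts from untreated animals. The treated group held all 4 drug libraries, 2 from mice given rivaroxaban (libraries 14 and 15) and 2 from mice given dabigatran (libraries 10 and 12), and the untreated group held libraries 8 and 9, so the comparison used all 6 libraries of the series. The genes described are those with a mean level of at least 0 log2 CPM (log2 of CPM, the share of a library's reads scaled to a fixed total) over the 6 libraries, 12981 of 16229 genes in the table. Every mouse was a wild-type C57BL/6 male aged 8 to 10 weeks, and no group carried a transgene or deletion. Rivaroxaban was dosed at 3 mg/kg and dabigatran at 10 mg/kg, each over 7 days. The labels describe the RNA as coming from infarcted heart with its surroundings, without saying whether the untreated mice had surgery or were given a vehicle. The series addresses how these inhibitors act on inflammation in a heart whose blood flow has been stopped and restored. No label ties each library to its own mouse, so p-values measure the spread between these libraries, which may be technical.

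Factor Xa turns prothrombin into thrombin (factor IIa), and thrombin turns fibrinogen into fibrin and activates platelets. Rivaroxaban blocks factor Xa and dabigatran blocks thrombin, so they act on adjacent steps of 1 cascade. Both proteases also signal to cells through protease-activated receptors, which heart muscle, vessel wall and fibroblasts carry. Pooling the drugs favours genes that are alike in both, since a gene that differs with one drug alone adds to the spread within the group. It does not leave such genes out.

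Library depth was 27176892 to 43798222 reads, or 594 to 975 reads for the median tested gene. The root mean square log2 difference between libraries was 0.201 to 0.217 within a group, 0.203 to 0.248 across the drugs and 0.236 to 0.292 between treated and untreated libraries. The tissue carried heart muscle markers at high level: Myh6, the main adult myosin heavy chain of the mouse, was at 15.2 to 15.3 log2 CPM in every library, and the 10 tested cardiomyocyte markers summed to 115900 to 117400 CPM in untreated and 111700 to 117100 CPM in treated hearts. Genes usually abundant in a fresh infarct were close to the bottom of the scale, which lies at -4.04 log2 CPM. Spp1 (osteopontin) had 8 to 15 reads in untreated and 10 to 23 in treated libraries, S100a8, S100a9 and Il1b had 5 to 29 reads in any library, and all of them lay below the level needed for testing. Postn, a matrix gene of activated fibroblasts, was at 5.84 and 5.99 log2 CPM in untreated and 5.66 to 5.99 in treated hearts.

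Pooled treated and untreated hearts differed in 312 of 12981 genes (adjusted p under 0.05, limma), 2.4% of those tested. Of these, 219 were higher (1.69%) and 93 were lower (0.716%) in treated hearts. These shares are the ones to set beside the counts of the gene lists below. Most changes were small: the median rise was 1.44-fold, the median fall was to 0.725 of the untreated level, and 35 genes moved by at least 1 log2 unit, 27 up and 8 down. 299 of the 312 were protein coding and 9 were annotated as long intergenic or antisense RNA. In all 312 the treated and untreated libraries did not overlap. 6 of the higher genes had an untreated mean below the filter of 0 log2 CPM and so were tested only through their level in treated hearts. Over all tested genes the 4 treated libraries lay above both untreated ones in 14.7% and below both in 11.7%. The changes stood in each drug library: over the 219 risers the median shift from the untreated mean was 0.50 and 0.60 in the rivaroxaban and 0.57 and 0.47 in the dabigatran libraries, and over the 93 fallers it was -0.41 and -0.49, and -0.42 and -0.47. These shifts describe genes picked for the difference itself.

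**Figure D1:**
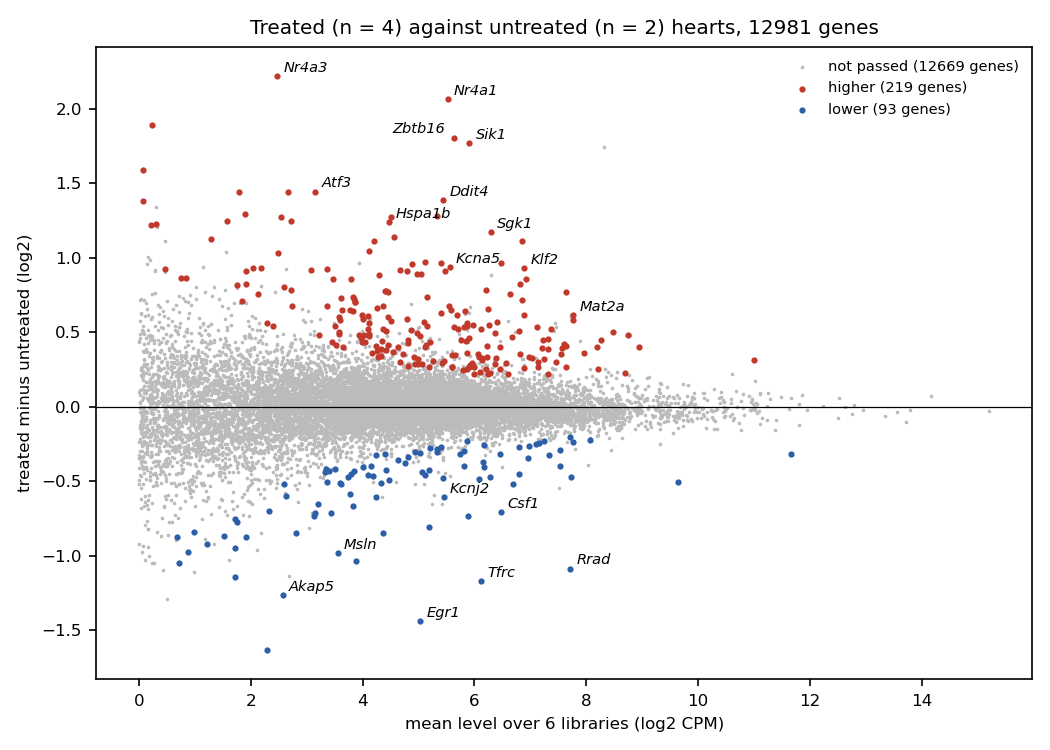
Difference between treated and untreated hearts (log2, y axis) against the mean level over 6 libraries (log2 CPM, x axis) for each of 12981 tested genes, with the 219 higher genes in red, the 93 lower in blue and the rest in grey. The red points reach 2.22 (Nr4a3) and the lowest named blue point is Egr1 at -1.44, while genes above about 12 log2 CPM lie near 0.

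The number of calls rested on a few libraries and on the variance model. It was 57 without untreated 8, 104 without untreated 9 and 127 without rivaroxaban 15, and between 305 and 331 without any of the other 3. It was 45 when limma was run without a mean-variance trend. All 312 genes kept their direction in each of these fits, but this could not be otherwise. Their treated and untreated libraries do not overlap, and the trend does not enter the difference. Of the 116 called genes named here, 23 also stayed called whichever library was left out: Sgk1, Tob2, Klf2, Kcna5, Errfi1, Ddit4, Mat2a, Sik1, S1pr1, Fosl2, Ppp1r10, Klf4, Rsrp1, Tsc22d3, Smad7, Per1, Cdkn1a, Atf3, Tnfrsf25, Bcl6, Bhlhe41, Sbk3 and Ms4a4a. Leaving out untreated 8 ended the call of 89 of the 116, untreated 9 of 71, rivaroxaban 15 of 51, dabigatran 10 of 16, dabigatran 12 of 13 and rivaroxaban 14 of 9, with adjusted p-values of up to 0.372.

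The 2 largest rises were in receptors of the NR4A family. Nr4a3, an orphan nuclear receptor that is transcribed within minutes of many stimuli (chr4:48045153-48086447, plus strand; positions throughout are GRCm38 with GENCODE M21), was at 0.86 and 1.11 log2 CPM in untreated 8 and 9, 2.52 and 2.55 in rivaroxaban 14 and 15, and 4.54 and 3.23 in dabigatran 10 and 12. All treated libraries lay above both untreated ones, and both dabigatran libraries lay above the rivaroxaban pair. The rise was 2.22 ± 0.45 log2 units (SE, n = 4 and 2), 4.67-fold, with adjusted p = 0.0287 (limma), and 0.00336 to 0.265 with 1 library left out, past 0.05 without either untreated library. Its close relative Nr4a1 (chr15:101254269-101274795, plus strand) had 3.85 and 4.44 in untreated, 5.66 and 5.84 in rivaroxaban and 7.19 and 6.16 log2 CPM in dabigatran hearts, a rise of 2.07 ± 0.34 (4.19-fold, adjusted p = 0.0107, and 0.00108 to 0.171 with 1 library left out, past 0.05 without either untreated library). For this gene too the libraries kept the order untreated, rivaroxaban, dabigatran. Nr4a2, the remaining member, was at 1.16 and 1.32 in untreated and 1.71 to 2.06 log2 CPM in treated hearts and did not pass (adjusted p = 0.064).

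Zbtb16, a zinc-finger repressor strongly induced by glucocorticoid hormone in many tissues (chr9:48654297-48836222, minus strand), was at 4.48 and 4.40 log2 CPM in untreated, 6.30 and 6.83 in rivaroxaban and 6.49 and 5.37 in dabigatran hearts. Dabigatran 12 was the lowest treated library and still lay above both untreated ones. The rise was 1.81 ± 0.29 (3.50-fold, adjusted p = 0.0105, and 4.2e-05 to 0.123 with 1 library left out, past 0.05 without either untreated library). Sik1, a kinase that restrains CREB-driven transcription and is itself a CREB target (chr17:31844250-31855804, minus strand), had 4.58 and 4.88 in untreated, 6.24 and 6.67 in rivaroxaban and 6.86 and 6.23 log2 CPM in dabigatran hearts, a rise of 1.77 ± 0.16 (3.41-fold, adjusted p = 0.000402). Here the drugs could not be ordered. The stress-induced transcription factor Atf3 rose by 1.45 ± 0.17 (2.72-fold, adjusted p = 0.00203), from 2.19 in both untreated libraries to between 3.31 and 4.08 log2 CPM in treated ones. Less abundant genes among the 15 largest rises were Cntn2, a cell adhesion molecule of the conduction system (1.44 ± 0.23), Irs2, an adaptor of the insulin receptor (1.29 ± 0.21), Tnfrsf25, a death receptor of the TNF family (1.28 ± 0.15), Sbk3, a kinase of heart muscle (1.25 ± 0.15), and Ms4a4a, a macrophage membrane protein (1.25 ± 0.16). With 1 library left out the adjusted p reached 0.0974 for Cntn2 and 0.15 for Irs2, both without untreated 8.

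**Figure D2:**
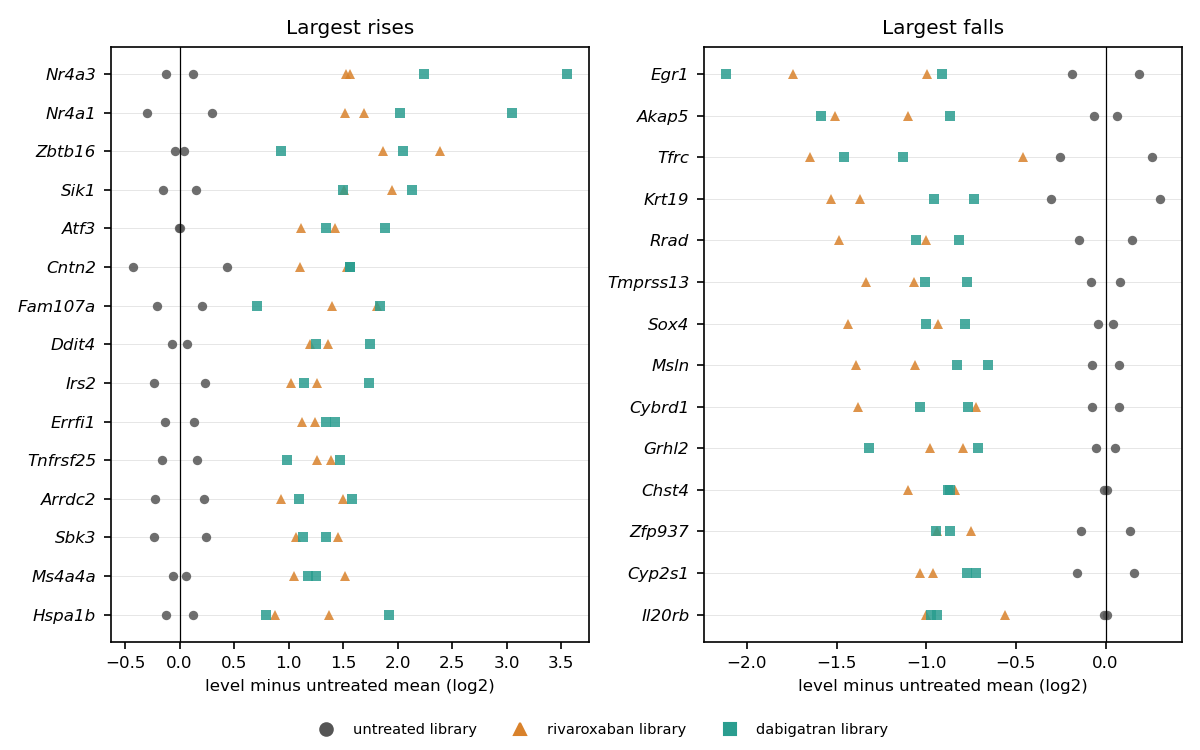
Level of each of the 6 libraries minus the untreated mean (log2, x axis) for the 15 largest rises (left) and 14 of the 15 largest falls (right) by the naming rule, with 1 point per library. The treated points lie wholly on 1 side of both untreated points for each gene, and the widest treated ranges are those of Nr4a3 and Nr4a1 among the rises.

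Most tested targets of the glucocorticoid receptor were higher. This receptor binds adrenal steroid hormone and moves to the nucleus, where it induces genes that limit inflammation, shift fuel use and slow growth. Of 21 tested genes that the receptor induces in many tissues, 15 were higher (71.4%, against 1.69% of all tested genes) and none was lower, and the list's median was 0.86 log2 units against 0.002 over all genes. The list was drawn up with earlier results of these libraries known, so its direction is not independent evidence. The count was 8 without untreated 8, 8 without untreated 9, 10 without rivaroxaban 15 and 14 to 16 without any of the other 3. It was 3 without a mean-variance trend and 9 with robust variances. It was 14 without both rivaroxaban libraries and 13 without both dabigatran libraries.

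Sgk1, a kinase that raises sodium and potassium transport and the gene with the smallest p of all (chr10:21882184-21999903, plus strand), was at 5.58 and 5.44 log2 CPM in untreated, 6.68 and 6.69 in rivaroxaban and 6.56 and 6.79 in dabigatran hearts. The SD was 0.10 among the untreated and 0.09 among the treated libraries, and the groups stood apart by 0.98, with a rise of 1.17 ± 0.07 (2.25-fold, adjusted p = 4e-05). Errfi1, an inhibitor of the EGF receptor (chr4:150853919-150868892, plus strand), went from 4.60 and 4.34 to 5.59, 5.71, 5.90 and 5.81 log2 CPM in libraries 14, 15, 10 and 12 (1.28 ± 0.09, adjusted p = 8.38e-05). Ddit4, which restrains the growth kinase complex mTORC1 (chr10:59949669-59951834, minus strand), went from 4.59 and 4.45 to between 5.72 and 6.27 log2 CPM (1.39 ± 0.13, adjusted p = 0.000402). All of these kept their call whichever library was left out, and so did Tsc22d3 (GILZ, an anti-inflammatory leucine zipper protein, 0.86 ± 0.10), Per1 (a clock repressor, 0.83 ± 0.10) and Cdkn1a (the cell cycle inhibitor p21, 0.92 ± 0.11). Arrdc2, an arrestin-like adaptor, rose by 1.28 ± 0.18, and its adjusted p was 0.0739 without untreated 9. Map3k6, a stress-activated kinase, rose by 1.11 ± 0.15, and Fkbp5, a chaperone that feeds back on the receptor itself, rose by 0.89 ± 0.19.

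The remaining called members were the metal-binding metallothioneins Mt2 (0.91 ± 0.17) and Mt1 (0.46 ± 0.09), the transcription factors Cebpd (0.78 ± 0.15) and Klf9 (0.33 ± 0.06), and Nfkbia, the inhibitor that holds NF-kB in the cytoplasm (0.54 ± 0.08). For Fkbp5, Mt1 and Mt2 the adjusted p without untreated 8 was 0.228, 0.286 and 0.25, the highest with 1 library left out, against 0.0419, 0.0322 and 0.0233 over all libraries. Klf9 reached 0.27 without untreated 8. The difference in Cebpd was 1.12 without untreated 8 and 0.44 without untreated 9, where its adjusted p was 0.132. Pdk4, which turns off pyruvate oxidation in favour of fatty acids, was at 7.82 and 6.47 log2 CPM in untreated, 8.03 and 9.59 in rivaroxaban and 8.49 and 9.46 in dabigatran hearts. All treated libraries were above both untreated ones, but the wide spread left it short of the threshold (1.75 ± 0.43, adjusted p = 0.0631). The only tested member with a negative difference was Lcn2, a neutrophil and stress protein (-0.61 ± 0.24, adjusted p = 0.232).

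A short promoter window, 250 bases before to 50 bases after the RefSeq start site, was searched on both strands for the sequences these factors bind. The glucocorticoid response element (GNACA and TGTNC with 3 bases between) lay in the window of 6 of 168 higher genes that had a window (3.57%), 0 of 68 lower genes and 40 of 9986 tested genes (0.401%). The 6 were Fam107a, Kcna5, Map3k6, Mt1, Sgk1 and Slc10a6, and 3 of them (Map3k6, Mt1 and Sgk1) belong to the glucocorticoid list. The cyclic AMP response element (TGACGTCA) lay in 8 of 168 higher (4.76%), 2 of 68 lower (2.94%) and 344 of 9986 tested genes (3.44%), with Errfi1, Btg2, Maff and Dusp8 among the 8. The heat shock element (TTC, GAA and TTC, each 2 bases apart) lay in 2 of the 168 (1.19%, against 0.581% of tested genes), 1 of them Hsph1. The AP-1 site (TGANTCA) lay in 8.33% of higher and 6.2% of tested genes, and the NR4A site (AAAGGTCA) in 1.19% and 1.17%. Of the 15 largest risers 13 had a window, and 11 of the 13 held none of the 5 elements, Nr4a3, Nr4a1 and Atf3 among them. That says nothing of sites elsewhere, and a match is a stretch of letters and not a measured binding site. The windows of the 6 largest risers with a glucocorticoid, cyclic AMP or heat shock element are shown because they put the match beside the gene that moved. They are RefSeq sequences of GRCm38.p6, 5′ to 3′ on the gene's strand, with the matched element in capitals.
Fam107a (chr14:8309730-8310029, minus strand; first capital 118 bases before the start site): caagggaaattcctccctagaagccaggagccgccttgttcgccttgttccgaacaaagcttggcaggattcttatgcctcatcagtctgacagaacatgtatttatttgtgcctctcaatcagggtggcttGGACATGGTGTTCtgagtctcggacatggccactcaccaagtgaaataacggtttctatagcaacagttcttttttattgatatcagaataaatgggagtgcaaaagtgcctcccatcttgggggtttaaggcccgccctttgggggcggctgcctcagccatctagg
Errfi1 (chr4:150854820-150855119, plus strand; cyclic AMP element, 51 bases before): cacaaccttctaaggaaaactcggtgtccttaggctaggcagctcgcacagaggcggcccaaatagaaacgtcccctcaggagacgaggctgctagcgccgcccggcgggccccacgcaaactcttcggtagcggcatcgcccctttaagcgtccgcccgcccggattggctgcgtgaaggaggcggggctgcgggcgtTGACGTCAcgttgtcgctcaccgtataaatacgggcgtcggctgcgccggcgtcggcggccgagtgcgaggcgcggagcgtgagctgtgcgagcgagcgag
Sgk1 (chr10:21993640-21993939, plus strand; 188 bases before): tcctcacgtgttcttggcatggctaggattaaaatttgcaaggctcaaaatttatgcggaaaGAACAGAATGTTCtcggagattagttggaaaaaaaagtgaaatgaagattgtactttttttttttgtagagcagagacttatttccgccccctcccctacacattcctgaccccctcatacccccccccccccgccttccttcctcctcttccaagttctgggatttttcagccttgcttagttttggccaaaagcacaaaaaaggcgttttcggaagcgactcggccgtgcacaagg
Map3k6 (chr4:133240568-133240867, plus strand; 181 bases before): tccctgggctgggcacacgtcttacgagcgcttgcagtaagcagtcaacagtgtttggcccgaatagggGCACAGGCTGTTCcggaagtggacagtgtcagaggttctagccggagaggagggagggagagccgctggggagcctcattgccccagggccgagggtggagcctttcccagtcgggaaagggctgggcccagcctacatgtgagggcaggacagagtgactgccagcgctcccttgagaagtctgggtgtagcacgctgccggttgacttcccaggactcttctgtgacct
Slc10a6 (chr5:103629354-103629653, minus strand; 163 bases before): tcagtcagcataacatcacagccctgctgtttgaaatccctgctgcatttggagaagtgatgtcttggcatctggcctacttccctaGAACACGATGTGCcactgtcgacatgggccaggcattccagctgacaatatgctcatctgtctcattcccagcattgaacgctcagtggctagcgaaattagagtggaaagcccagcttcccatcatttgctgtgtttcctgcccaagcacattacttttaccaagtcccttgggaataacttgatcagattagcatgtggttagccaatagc
Kcna5 (chr6:126535506-126535805, minus strand; 59 bases before): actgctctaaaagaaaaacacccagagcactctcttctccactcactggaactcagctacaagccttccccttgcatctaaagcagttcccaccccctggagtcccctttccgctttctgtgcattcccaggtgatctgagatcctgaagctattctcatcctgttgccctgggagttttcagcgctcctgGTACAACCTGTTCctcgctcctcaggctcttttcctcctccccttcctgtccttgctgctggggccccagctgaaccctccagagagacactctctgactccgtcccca
Of the genes shown, Fam107a encodes an actin-associated stress protein and rose by 1.44 ± 0.27 (adjusted p = 0.0226, and 0.000847 to 0.257 with 1 library left out, past 0.05 without untreated 8, untreated 9 or rivaroxaban 15). Slc10a6, a steroid sulfate transporter, was at 1.79 log2 CPM in both untreated libraries and 2.61 to 3.24 in treated ones, a rise of 1.03 ± 0.16 (adjusted p = 0.0097, and up to 0.114 with 1 library left out, past 0.05 without either untreated library).

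Of 10 tested NR4A and Krüppel-like (KLF) factors 6 were higher, against 1.69% of all tested genes, none was lower and 4 did not pass. This list, too, was drawn up with earlier results of these libraries known. The number higher was 2 without untreated 8, 3 without untreated 9, 5 or 6 without another library, 2 without a mean-variance trend and 4 with robust variances. Klf2, a transcription factor that keeps endothelium quiescent under flow (chr8:72319033-72321656, plus strand), was at 6.36 and 6.20 log2 CPM in untreated, 7.26 and 7.29 in rivaroxaban and 7.09 and 7.19 in dabigatran hearts, a rise of 0.93 ± 0.07 (1.91-fold, adjusted p = 8.38e-05). Klf4, its partner in the vessel wall (chr4:55527143-55532466, minus strand), rose from 5.87 and 5.79 to 6.84, 7.00, 6.60 and 6.76 log2 CPM in libraries 14, 15, 10 and 12 (0.97 ± 0.09, adjusted p = 0.000402). The lowest treated library stood 0.73 log2 units above the highest untreated one for both genes. Klf6 rose by 0.55 ± 0.09, while Klf15, a circadian and glucocorticoid-responsive member, did not pass (0.17 ± 0.11, adjusted p = 0.49).

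Of 18 tested targets of CREB and its coactivators, which answer cyclic AMP, 8 were higher, against 1.69% of all tested genes, none was lower and 10 did not pass. The number higher was 3 without untreated 8, 4 without untreated 9, 6 without rivaroxaban 15, 8 without any of the other 3, 1 without a mean-variance trend and 5 with robust variances. The 8 were Nr4a3, Nr4a1, Sik1, Atf3, Fam107a, Irs2, Per1 and Pde4b, a phosphodiesterase that breaks down cyclic AMP (0.34 ± 0.07). Several of them also stand on the glucocorticoid or NR4A lists, so the lists are not separate counts. All the lists were drawn up with earlier results of these libraries known, so their counts are not independent evidence. Among 21 tested targets of FOXO factors, which are active when insulin signalling is low, 4 were higher and 1 was lower: Ddit4, Irs2, Bcl6, a repressor of inflammatory genes (0.97 ± 0.12), and Klf2 rose, and Cited2, a transcriptional coregulator, fell by 0.40 ± 0.09 (adjusted p = 0.0372, and 0.0178 to 0.372 with 1 library left out). The muscle ubiquitin ligases of the FOXO list were among those that did not pass. Over all tested genes 1.69% were higher and 0.716% were lower.

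The AP-1 and EGR transcription factor genes did not move 1 way. Among 17 tested AP-1 and EGR genes, 5 were higher (Atf3, Fosl2, Maff, Jun and Mafk) and Egr1 was lower, against 1.69% and 0.716% of all tested genes. Without untreated 8 there were 2 higher, without rivaroxaban 15 there were 3, and without a mean-variance trend there was 1. Egr1, a zinc-finger factor induced by growth factors, stretch and thrombin in cultured cells, was at 5.80 and 6.18 log2 CPM in untreated, 5.0 and 4.25 in rivaroxaban and 3.87 and 5.08 in dabigatran hearts. All 4 treated libraries were lower, the nearest by 0.72, with a fall of 1.44 ± 0.28 (to 0.368 of the untreated level, adjusted p = 0.0259, and up to 0.178 with 1 library left out, past 0.05 without untreated 8, untreated 9 or rivaroxaban 15). Fosl2 (Fra-2, an AP-1 subunit; chr5:32135801-32157842, plus strand) went the other way, from 4.28 and 4.23 to 5.01, 5.21, 5.35 and 5.28 log2 CPM in libraries 14, 15, 10 and 12 (0.96 ± 0.09, adjusted p = 0.000402). Jun rose by 0.47 ± 0.10, and its adjusted p without untreated 8 was 0.366. The classical early genes Fos (-0.58 ± 0.23), Fosb (-0.78 ± 0.34) and Junb (-0.13 ± 0.10) had negative differences that did not pass (adjusted p = 0.234, 0.274 and 0.58).

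A few genes that degrade messenger RNA or end signals were higher. Tob2, which brings the deadenylase complex to messenger RNA (chr15:81848272-81858796, minus strand), was at 6.06 and 6.14 log2 CPM in untreated, 7.08 and 7.37 in rivaroxaban and 7.27 and 7.14 in dabigatran hearts. The rise of 1.11 ± 0.07 (2.17-fold, adjusted p = 8.38e-05) had the next smallest p after Sgk1. Btg2, of the same antiproliferative family, rose by 0.55 ± 0.07, and Zfp36, which destabilises cytokine messenger RNA, rose by 0.54 ± 0.11. Those 3 were the called members among 10 tested decay factors, against 1.69% of all tested genes. Of 16 other ways of making the comparison, none ended the call of Tob2, 2 ended that of Btg2 and 5 that of Zfp36. Some of these left out an untreated library. Of 16 tested inhibitors of MAP kinase signalling, Errfi1 and the phosphatase Dusp8 (0.29 ± 0.06) were higher and Spry2 was lower (-0.36 ± 0.08), against 1.69% and 0.716% of all tested genes. Errfi1 alone of these passed without untreated 8, untreated 9 or rivaroxaban 15.

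Of 22 tested heat shock proteins 7 were higher (against 1.69% of all tested genes), 1 was lower and 14 did not pass. The higher ones are parts of the HSP70 and HSP90 folding machine. Earlier results of these libraries were known when the list was drawn up. Dnaja1, a cochaperone of HSP70, was at 6.51 and 6.25 log2 CPM in untreated, 6.93 and 7.14 in rivaroxaban and 7.36 and 6.97 in dabigatran hearts (0.72 ± 0.11, adjusted p = 0.00854). Dnajb1, another cochaperone, rose by 0.89 ± 0.14, and Hsph1, which recharges HSP70 with nucleotide, rose by 0.57 ± 0.09. Hspa1b, the inducible HSP70, was at 3.52 and 3.77 in untreated and 4.44 to 5.57 log2 CPM in treated hearts (1.24 ± 0.25, adjusted p = 0.0287), but it shares reads with its near-identical copy, so its own value is uncertain. The largest difference in the list, 1.34, was in a gene that did not pass. The abundant chaperones Hsp90aa1 (0.39 ± 0.08) and Hspa8 (0.31 ± 0.07) and the cochaperone Dnajb5 (0.27 ± 0.06) rose less. Hspb7, a small heat shock protein of heart and skeletal muscle, fell by 0.32 ± 0.07. This count depended on the libraries: 1 heat shock gene was higher without untreated 8, 1 without untreated 9, 3 without rivaroxaban 15 and 5 to 7 without another. It depended on the variance model too, with 0 higher without a mean-variance trend and 3 with robust variances. In the unfolded protein and integrated stress response 5% of the list was called. At 1 gene of 20 that is near the 2.4% of all tested genes. Of 20 tested genes of the unfolded protein and integrated stress response, Atf4, a transcription factor of that response, alone was called (0.33 ± 0.07, adjusted p = 0.0285, and up to 0.176 with 1 library left out).

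Among genes of the vessel wall, 2 of 20 tested endothelial markers were higher, against 1.69% of all tested genes, and none was lower. In 40% of the 20 all treated libraries lay above both untreated ones, and in 10% below. Over all tested genes these shares were 14.7% and 11.7%. S1pr1, the sphingosine-1-phosphate receptor that tightens endothelial junctions (chr3:115710433-115715072, minus strand), was at 6.17 and 6.10 log2 CPM in untreated, 6.73 and 6.87 in rivaroxaban and 6.94 and 7.00 in dabigatran hearts, a rise of 0.75 ± 0.07 (1.69-fold, adjusted p = 0.000402). It was chosen after its values were seen. Rgcc, a cell cycle regulator (0.56 ± 0.12), and Eng, a coreceptor for BMP ligands (0.25 ± 0.05), were the 2 called of 20 tested endothelial markers, and neither passed without untreated 8, untreated 9 or rivaroxaban 15. The 20 markers summed to 4737 to 4878 CPM in untreated and 4828 to 5412 CPM in treated hearts, and the part that this had in the rise of vessel genes was not tested. Within the BMP pathway, which acts through SMAD proteins on the ID genes, 4 of 19 tested members were higher, against 1.69% of all tested genes. They were Id1 (0.64 ± 0.10), Smad7, the inhibitory SMAD (0.57 ± 0.07), Id3 (0.46 ± 0.07) and Eng. Without untreated 8, and also without untreated 9, Smad7 alone of them passed. Of 29 tested VEGF, apelin and Notch genes, Hey1 and Vegfa were higher and Hes1 and Aplnr lower, against 1.69% and 0.716% of all tested genes. Hey1, a Notch target, rose by 0.66 ± 0.10 while Hes1, another Notch target, fell by 0.28 ± 0.06. Without rivaroxaban 15 the adjusted p (limma) was 0.0318 for Hey1, 0.094 for Hes1 and 0.112 for Vegfa. Vegfa, the main growth factor of vessels, rose by 0.22 ± 0.05, and Aplnr, the apelin receptor, fell by 0.74 ± 0.15, with adjusted p = 0.26 without untreated 8.

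Called ion channel genes of heart muscle lay in both directions, 1 higher and 3 lower of 23 tested, against 1.69% and 0.716% of all tested genes. Kcna5, the Kv1.5 channel of the ultrarapid repolarising current (chr6:126532551-126535412, minus strand), was at 4.96 and 4.90 log2 CPM in untreated, 5.91 and 5.97 in rivaroxaban and 5.86 and 5.74 in dabigatran hearts. It rose by 0.94 ± 0.07 (1.92-fold, adjusted p = 8.38e-05) and was the only 1 of 23 tested potassium and pacemaker channel genes called higher. Kcnj2, the Kir2.1 channel that sets the resting potential (chr11:111066164-111076821, plus strand), was at 5.95 and 5.76 in untreated, 5.14 and 5.12 in rivaroxaban and 5.33 and 5.39 log2 CPM in dabigatran hearts, a fall of 0.60 ± 0.09 (to 0.658, adjusted p = 0.00621, and 0.114 without untreated 8, the highest with 1 library left out). The other 2 lower members were Kcnj3, a channel opened by G proteins (-0.32 ± 0.06), and Kcnq1, the slow delayed rectifier (-0.26 ± 0.06). The lower count was 0 without untreated 8 or without a mean-variance trend, and 1 without untreated 9 or rivaroxaban 15.

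Of 21 tested genes for calcium channels, RGK GTPases and kinase anchors, 2 were lower, against 0.716% of all tested genes, and none was higher. Rrad, a small GTPase that inhibits the L-type calcium channel (chr8:104628070-104631327, minus strand), was at 8.59 and 8.29 log2 CPM in untreated, 7.45 and 6.96 in rivaroxaban and 7.39 and 7.63 in dabigatran hearts. All treated libraries lay below both untreated ones, by at least 0.67, with a difference of -1.09 ± 0.15 (to 0.47 of the untreated level, adjusted p = 0.00398, and 0.09 without untreated 8, the highest with 1 library left out). Akap5, a scaffold that holds protein kinase A and calcineurin at the membrane (chr12:76324891-76334153, plus strand), was at 3.36 and 3.48 in untreated, 2.32 and 1.91 in rivaroxaban and 1.84 and 2.55 log2 CPM in dabigatran hearts (-1.27 ± 0.19, adjusted p = 0.00668, and up to 0.0844 with 1 library left out, past 0.05 without either untreated library).

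Other large falls were in single genes of different roles. Tfrc, the transferrin receptor that brings iron into cells (chr16:32608920-32632794, plus strand), was at 6.65 and 7.16 in untreated, 6.44 and 5.26 in rivaroxaban and 5.78 and 5.44 log2 CPM in dabigatran hearts. Rivaroxaban 14 lay close to the untreated libraries and the call was weak (-1.17 ± 0.26, adjusted p = 0.0425, and 0.000965 to 0.248 with 1 library left out, past 0.05 without any library but rivaroxaban 14). Cybrd1, a reductase that prepares iron for uptake, fell by 0.98 ± 0.22 at a level of 36 to 96 reads. Zfp937, a zinc-finger protein, fell by 0.88 ± 0.19 at 32 to 74 reads, with an adjusted p of up to 0.348 when 1 library was left out. Sox4, a transcription factor of progenitor cells, fell from 4.54 and 4.62 to between 3.15 and 3.80 log2 CPM (-1.04 ± 0.15), and Csf1, the growth factor of macrophages, from 7.18 and 6.72 to between 6.12 and 6.36 (-0.71 ± 0.11). Without untreated 8 their adjusted p was 0.0741 and 0.0636, and without untreated 9 it was 0.072 for Sox4.

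The falls with the smallest p-values were modest and tight. Ky, a protease that maintains muscle (chr9:102505750-102546239, plus strand), was at 5.51 and 5.43 log2 CPM in untreated and 5.05, 5.05, 5.03 and 5.05 in libraries 14, 15, 10 and 12. The treated SD was 0.01, the smallest gap between the groups was 0.38, and the fall was 0.43 ± 0.06 (to 0.743, adjusted p = 0.00345, and 0.0646 without untreated 8, the highest with 1 library left out). Fmod, the collagen-binding fibromodulin, fell by 0.74 ± 0.10, Spsb4, an adaptor of a ubiquitin ligase, by 0.72 ± 0.10, and Mlf1, a centrosome-linked protein of muscle and blood, by 0.40 ± 0.05. Each of these lost its call without untreated 8. Rarres2 (chemerin, a chemoattractant of macrophages) fell by 0.49 ± 0.07, from 4.80 in both untreated libraries to 4.25 to 4.39.

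Several markers of the mesothelium, the epithelium that covers the heart, were lower. Of 17 tested mesothelial and epicardial markers 5 were lower and 1 was higher, against 0.716% and 1.69% of all tested genes. In 14 all treated libraries lay below both untreated ones (82.4%, against 11.7% of tested genes). The median was -0.85 log2 units against 0.002 over all genes. This list was drawn up with earlier results of these libraries known, so its direction is not independent evidence. The 17 summed to 142 to 148 CPM in untreated and 89.5 to 110 CPM in treated hearts. Upk3b, a uroplakin of the mesothelial surface (chr5:136038496-136046487, plus strand), was at 4.99 and 4.86 log2 CPM in untreated, 3.80 and 4.19 in rivaroxaban and 4.08 and 4.25 in dabigatran hearts (-0.85 ± 0.11, adjusted p = 0.00368). Msln (mesothelin) fell by 0.98 ± 0.17, Krt19, a keratin, by 1.15 ± 0.24, Chst4, a sulfotransferase, by 0.92 ± 0.16 and Gpm6a, a membrane glycoprotein, by 0.66 ± 0.11. The keratins Krt8 and Krt18 had differences of -1.05 ± 0.31 and -0.90 ± 0.37 that did not pass (adjusted p = 0.121 and 0.243). Wt1, a transcription factor of epicardium that endothelium can also express, rose by 0.49 ± 0.08. Hearts with fewer mesothelial cells and hearts with less of this RNA per cell cannot be told apart in bulk tissue, and the same holds for every cell type named here. The lower count was 0 without untreated 8, 1 without untreated 9 or without a mean-variance trend, and 4 to 7 without another library, and 2 without both rivaroxaban against 11 without both dabigatran libraries. Other epithelial genes among the 15 largest falls were Grhl2, a factor of epithelial identity (-0.95 ± 0.18), Tmprss13, a membrane protease (-1.05 ± 0.21), Cyp2s1, an epithelial cytochrome (-0.87 ± 0.15), and Il20rb, a cytokine receptor chain (-0.87 ± 0.17). Their adjusted p (limma) was 0.0227, 0.0272, 0.0147 and 0.0233. Without rivaroxaban 15 it was 0.0457, 0.0661, 0.0479 and 0.0665. Levels were low, with 29 to 89 reads for Tmprss13 and 57 to 138 for Il20rb. The part of the mesothelial level in those falls was not tested.

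The inflammatory and blood cell lists held 1 or 2 called genes or none, to be set beside the 2.4% of all tested genes called. The share was 11.1% of the NF-kB, 5.88% of the cytokine and 12.5% of the lymphocyte list. It was 16.7% of the red cell and platelet list, through Slc4a1 alone. It was 0% of the interferon, macrophage and neutrophil lists, and lists this short cannot show a share below 2.4%. Some cytokine genes lay below the level needed for testing. Of those, Tnf had 34 and 40 reads in untreated and 7 to 23 in treated libraries. Ccl8 went the other way, with 6 and 14 reads in untreated and 20 to 32 in treated libraries. Of 24 tested interferon-stimulated genes none was called, of 17 tested cytokines and chemokines Csf1 alone was called, and of 18 tested genes of NF-kB and its feedback Nfkbia and Tnfaip2, a gene induced by TNF (0.41 ± 0.07), were higher, and neither passed when untreated 8 or untreated 9 was left out. None of 19 tested macrophage and monocyte markers was called, and they summed to 722 to 780 CPM in untreated and 730 to 838 CPM in treated hearts. Of 8 tested lymphocyte markers Ighm, the heavy chain of immunoglobulin M, was lower (-0.59 ± 0.13, adjusted p = 0.0423, and 0.314 without untreated 8, the highest with 1 library left out), and the list summed to 41.1 to 42.3 CPM in untreated and 27.8 to 36.0 CPM in treated hearts. 3 neutrophil markers could be tested and none was called, and they summed to 10.0 to 11.4 CPM in untreated and 6.07 to 8.91 CPM in treated hearts. Slc4a1, the band 3 protein of red cells, was at -0.21 and -1.85 log2 CPM in untreated and 0.37 to 1.38 in treated hearts, 7 to 23 and 36 to 74 reads. It was tested only through its level in treated hearts, so its call supports nothing. The difference was 1.90 over all libraries and 1.07 without untreated 9, with adjusted p = 0.0419 and 0.202. The 6 tested red cell and platelet markers summed to 47.4 to 72.3 CPM in untreated and 63.8 to 83.3 CPM in treated hearts, and blood left in the tissue was not tested as a source.

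**Figure D3:**
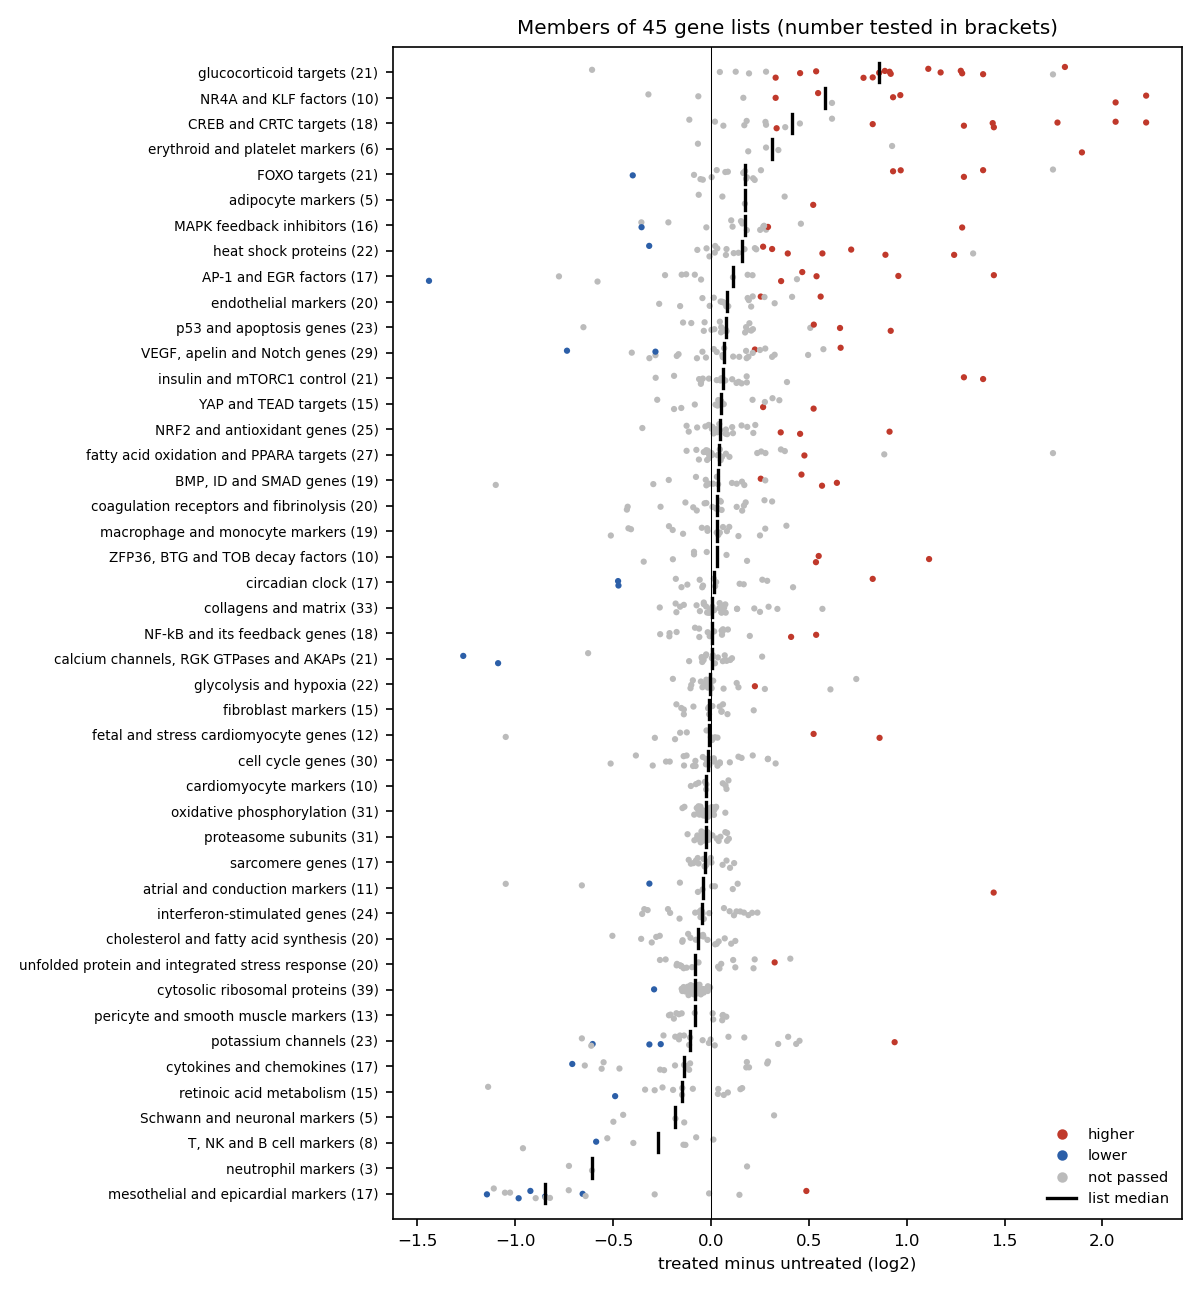
Difference between treated and untreated hearts (log2, x axis) of each tested member of 45 gene lists, ordered by list median (black bar), with higher members in red, lower in blue and those that did not pass in grey. Glucocorticoid targets have the highest median (0.86) and mesothelial and epicardial markers the lowest (-0.85), while sarcomere, oxidative phosphorylation and proteasome genes lie in a narrow band around 0.

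The contractile and energy programmes of heart muscle showed no called gene in their core lists. None of 17 tested sarcomere genes (differences of -0.11 to 0.12), 31 oxidative phosphorylation genes (-0.15 to 0.07) or 31 proteasome subunits (-0.12 to 0.09) passed, against 2.4% of all tested genes. Lists this short cannot show a share below that. In 29.4% of the sarcomere genes all treated libraries lay below both untreated ones, and in 5.88% above. Over all tested genes these shares were 11.7% and 14.7%. Of 39 tested cytosolic ribosomal protein genes Rpl3 was lower (-0.29 ± 0.04, adjusted p = 0.00804, and up to 0.0787 with 1 library left out, past 0.05 without either untreated library). That 1 call is 2.56% of the list, against 0.716% of all tested genes called lower. The other 38 had small differences, and 20 of the 39 had all treated libraries below both untreated ones (51.3%, against 11.7% of tested genes), with a list median of -0.08. Of 27 tested fatty acid genes Ppara, the nuclear receptor that drives their oxidation, rose by 0.48 ± 0.08 (adjusted p = 0.0105, and up to 0.114 with 1 library left out). That 1 call is 3.7% of the fatty acid list, against 1.69% of all tested genes called higher. None of 33 collagen and matrix genes, 15 fibroblast markers or 30 cell cycle genes was called, against 2.4% of all tested genes. Of 12 fetal and stress genes of heart muscle Ctgf, a matricellular growth factor (0.52 ± 0.09), and Gdf15, a stress cytokine (0.86 ± 0.20), were higher, with adjusted p of up to 0.193 and 0.315 with 1 library left out. These 2 are 16.7% of the list, against 1.69% of all tested genes called higher. Nppa, the atrial natriuretic peptide, was at 6.08 and 6.81 in untreated and 6.09 to 6.77 log2 CPM in treated hearts, so its groups overlapped. Among 17 clock genes Per1 was higher, and Dbp (-0.48 ± 0.11) and Bhlhe41 (-0.47 ± 0.06) were lower, against 1.69% and 0.716% of all tested genes.

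Survival and oxidant genes gave a few more rises, to be set beside the 1.69% of all tested genes that were higher. Of 23 tested p53 and apoptosis genes, Cdkn1a, Bcl2l1, which encodes the survival protein Bcl-xL (0.66 ± 0.11), and Fas, a death receptor (0.53 ± 0.11), were higher, and 1 of them passed without untreated 8 or untreated 9. Of 25 tested NRF2 and antioxidant genes, Nfe2l2, which encodes NRF2 itself (0.36 ± 0.06), was higher beside Mt1 and Mt2, and none of them passed when untreated 8 or untreated 9 was left out. Of 15 tested targets of YAP, the effector of the Hippo pathway, Ctgf and the Hippo kinase Lats2 (0.27 ± 0.06) were higher, and neither passed without untreated 8. Pparg, the nuclear receptor of fat cells, rose by 0.52 ± 0.11 and was the only 1 of 5 tested adipocyte markers called (0.0741 without untreated 8 and 0.215 without untreated 9).

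The receptors and regulators of coagulation were not among the called genes. None of 20 tested members of that list was called, against 2.4% of all tested genes, and a list of 20 cannot show a share below that. In 2 of the 20 (10%) all treated libraries lay above both untreated ones and in 2 (10%) below. These shares were near the 14.7% and 11.7% of all tested genes. F2r, the thrombin receptor PAR1, was at 5.47 and 5.54 log2 CPM in untreated, 5.78 and 5.60 in rivaroxaban and 5.53 and 5.63 in dabigatran hearts (0.13 ± 0.07, adjusted p = 0.385). The receptors F2rl1 (PAR2) and F2rl3 (PAR4) were near 1 and 0 log2 CPM, with differences of 0.01 ± 0.20 and -0.26 ± 0.25. Thbd (thrombomodulin, which turns thrombin toward activating protein C) was at 6.30 and 6.31 in untreated and 6.34 to 6.57 log2 CPM in treated hearts (0.18 ± 0.07, adjusted p = 0.203). F3 (tissue factor, which starts the cascade) was at 5.14 and 5.13 in untreated, 5.17 and 5.29 in rivaroxaban and 5.10 and 4.85 in dabigatran hearts (-0.03 ± 0.10). Procr, the protein C receptor, was at 1.09 and 1.01 in untreated and 0.98 to 1.19 in treated hearts (0.05 ± 0.16). A p that misses the threshold does not show that these levels were equal.

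The drugs within the treated group were then set against each other, rivaroxaban minus dabigatran, in a fit of 3 group means. Of 12981 genes 10 differed (0.077%), and none of the 10 was among the 312 called in the pooled comparison. At an unadjusted p under 0.05, 40 of the 312 differed between the drugs (12.8%), against 8.43% of all tested genes. With the other tools the number of the 312 that differed was 0 by voom on the recovered reads and 1 with robust variances. A low number is built into the choice, since the pooled fit counts a difference between the drugs as error and so favours genes that are alike in both. The median 95% interval of the drug difference over the 312 genes reached 0.21 log2 units to either side, before any adjustment for the number of genes. The doses also differed, at 3 and 10 mg/kg.

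By the naming rule the called genes with the largest drug differences were Zbtb16, Otud1, Noxred1 and Adamtsl2 on the rivaroxaban side and Nr4a3, Nr4a1, Krt19 and Msln on the dabigatran side. Otud1, a deubiquitinase, was at 4.80 and 4.73 log2 CPM in untreated, 5.89 and 6.17 in rivaroxaban and 5.56 and 5.29 in dabigatran hearts, with a drug difference of 0.61 (95% interval 0.38 to 0.83, adjusted p = 0.0875). Noxred1 was tested only through its level in treated hearts (13 and 14 reads in untreated and 36 to 73 in treated libraries), and its drug difference of 0.42 had an interval that held 0 (-0.37 to 1.21). Adamtsl2, a secreted matrix protein that binds the latent TGF-beta complex, had a drug difference of 0.42 (0.17 to 0.66, adjusted p = 0.295). Nr4a3 and Nr4a1 were higher with dabigatran by 1.35 (interval -2.05 to -0.66, adjusted p = 0.223) and 0.93 (-1.52 to -0.34, adjusted p = 0.336). Msln was at a lower level with rivaroxaban (-0.49, interval -0.76 to -0.21, adjusted p = 0.28), and so was Krt19 (-0.61, interval -1.08 to -0.14, adjusted p = 0.463). None of these differences passed the adjustment. For Sgk1 the drugs differed by 0.01 (-0.16 to 0.19) and for Tob2 by 0.02 (-0.17 to 0.21), so the intervals around these differences were narrow beside the rises in both genes.

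**Figure D4:**
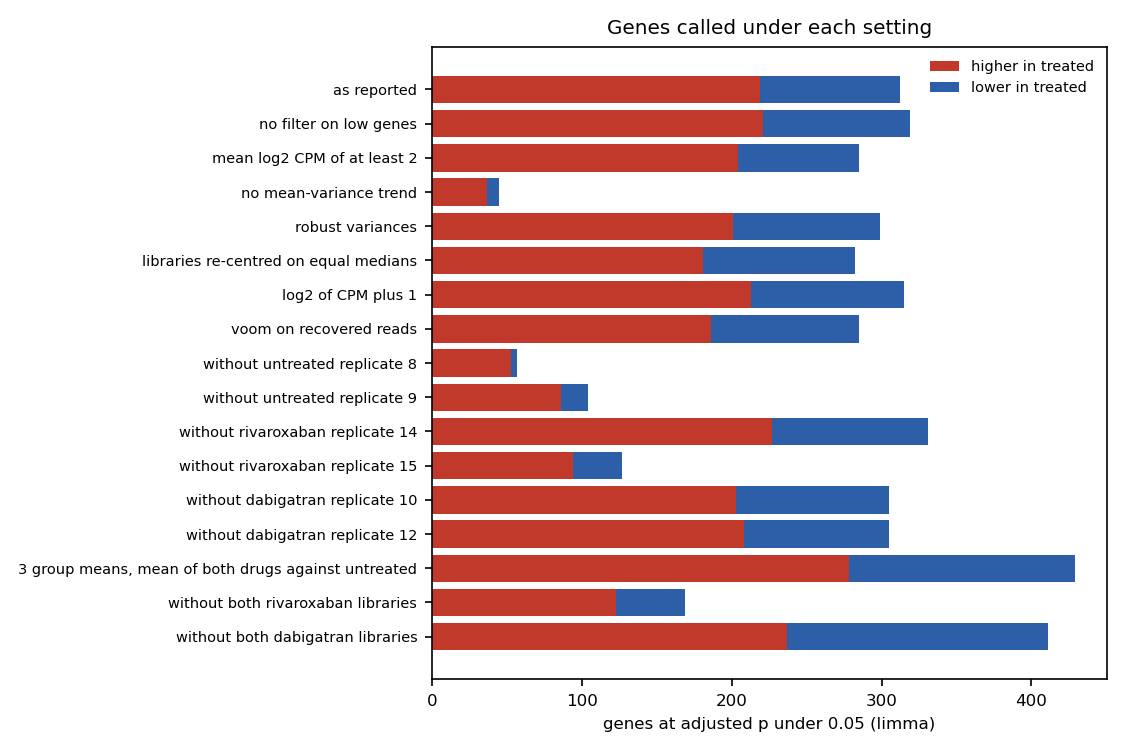
Number of genes called between treated and untreated hearts (adjusted p under 0.05, x axis) with 16 other ways of making the comparison and as reported, split into higher (red) and lower (blue). The bars are shortest without a mean-variance trend (45 genes) and without untreated replicate 8 (57) or 9 (104), and longest when the drugs are fitted as separate groups (429).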

How the data were processed

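Poly-A RNA of mouse heart had been sequenced in 6 libraries, 2 per label (untreated, rivaroxaban, dabigatran). The deposited values are log2 CPM scaled by the authors with TMM, per the file headers; the submitters' processing notes list, without versions, STAR, edgeR, Trim Galore, FastQC and bcl2fastq and the build mm10. How reads were counted, and on which annotation, is not given in the sources used here. Low values are drawn toward the floor of 0.061 CPM that was added before the log2, so their fold changes are understated. After that floor was subtracted, 100% of low values were whole reads within 0.02, which gave each library's depth. The reads carry no molecular identifiers, so counting error understates the error of a level.

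From the deposited log2 values, limma 3.58.1 in R 4.3.3 (lmFit and eBayes with a mean-variance trend, 4 residual and 6.84 prior degrees of freedom) tested the 4 treated against the 2 untreated libraries in the genes whose mean reached 0 log2 CPM. P-values were two-sided and adjusted by Benjamini-Hochberg over all tested genes, at a threshold of 0.05. An exact permutation test of 4 against 2 libraries cannot reach that threshold. The drugs were compared in a second fit of 3 group means (3 residual and 7.75 prior degrees of freedom). Errors are the standard errors of the fit unless given as SD. The fits were tested on simulated data. Members and the 45 gene lists were chosen with earlier results of these data known. 902 of 987 list entries were in the table and 836 were tested, some genes in several lists.

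The genes named were, of those called, not overlapping between groups and at least 1 log2 CPM in a group, the 15 largest rises and falls and the 8 smallest p-values each way, and further up to 4 members of each list, the 4 largest drug differences each way among called genes, coagulation receptors and tissue markers. Some genes that this rule takes are not reported here. S1pr1 and other list members beyond these were chosen after their values were seen. Promoter windows came from RefSeq (GRCm38.p6), for 9986 tested genes. Alternatives changed the filter, variance model, centring, pseudocount (1 CPM), test (voom on recovered reads) or libraries.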

Additional observations from a re-analysis of the deposited data

Results flagged for a closer look

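Among the 134 genes named that were tested, 7 had 1 treated library standing apart from the other 3 by more than Dixon's 95% limit for 4 samples. Chance flags about 1 in 20 groups, or 5%. Dabigatran 12 was the library that stood apart for Mlf1 (7.29 log2 CPM), Lats2 (5.62), Dnajb5 (7.10) and Dbp (7.24), in each case at the lowest level of the 4. Rivaroxaban 14 stood apart for Cntn2 (1.95 log2 CPM), Chst4 (0.73) and Il20rb (1.55). For Cntn2, Lats2, Dnajb5 and Il20rb this library lay nearest the untreated ones, and for Mlf1, Dbp and Chst4 it lay farthest from them.

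The rivaroxaban and dabigatran libraries lay on opposite sides of the untreated mean for 2 coagulation genes. F3 was higher with rivaroxaban than with dabigatran by 0.26 log2 units (95% interval 0.06 to 0.45, limma adjusted p = 0.455), with rivaroxaban above and dabigatran below the untreated mean. F2rl1 differed by 0.10 (-0.42 to 0.62, adjusted p = 0.949). Neither drug difference passed the adjustment.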

How the results depend on the processing

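All 312 genes kept their direction under the 16 alternatives wherever they were tested, and 17 of the 116 called genes named kept their call in all of them. Leaving out libraries could not turn a direction, because the groups did not overlap in any of the 312. A change of variance model alone leaves the difference as it was. The count of calls (312, of which 219 higher and 93 lower) fell to 45 (37 and 8) without a mean-variance trend and to 169 (123 and 46) without both rivaroxaban libraries. With the drugs fitted as separate groups 151 were lower, and without both dabigatran libraries 174 were lower. With 1 library left out the count lay between 57 and 331 (53 to 227 higher, 4 to 104 lower), lowest without untreated 8. Re-centring the libraries moved the share of higher calls from 70.2% to 64.2%. Between the drugs, 10 genes became 1 with a filter at 2 log2 CPM, 0 without the trend in limma and 0 to 20 with 1 library left out (0 without rivaroxaban 14, rivaroxaban 15 or dabigatran 10). At an unadjusted p under 0.05 the numbers were 1094 as reported, 984 without the trend and 647 to 1395 with 1 library left out. The cause of these changes was not tested. Genes that did not pass and changed sign were F3 (-0.03 over all libraries, -0.095 without rivaroxaban 15, 0.052 without dabigatran 12 and 0.095 without both dabigatran libraries), F2rl1 (-0.007 after re-centring, -0.001 with log2 of CPM plus 1, -0.26 without untreated 9, 0.274 without untreated 8, -0.015 without rivaroxaban 14, -0.004 without rivaroxaban 15 and -0.043 without both) and Nppa (-0.009 after re-centring, -0.36 without untreated 8, 0.369 without untreated 9, -0.019 without rivaroxaban 15, -0.101 without dabigatran 12 and -0.017 without both rivaroxaban libraries). No paired analysis was possible because the groups share no replicate numbers.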

Other observations

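The genes below stand in none of the lists and were chosen after their values were seen, apart from Mat2a, which the naming rule took. They stand for no pathway, since the other genes of their pathways were not counted. Mat2a, which makes the methyl donor S-adenosylmethionine (chr6:72432799-72439558, minus strand), was at 7.40 and 7.31 log2 CPM in untreated, 7.89 and 8.07 in rivaroxaban and 7.99 and 7.93 in dabigatran hearts. The rise was 0.61 ± 0.06 (1.53-fold, adjusted p = 0.000402), and it kept its call whichever library was left out. Amd1, the decarboxylase that commits this product to polyamine synthesis, rose by 0.52 ± 0.11 and its near-identical copy Amd2 by 0.51 ± 0.11, but reads may be split between the copies and their values are uncertain. Oaz2, an antizyme that lowers polyamine synthesis, fell by 0.24 ± 0.05. With 1 library left out the adjusted p of Amd1, Amd2 and Oaz2 reached 0.197, 0.222 and 0.359.

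Ppp1r10, a nuclear regulator of protein phosphatase that takes part in ending transcription (chr17:35916434-35932283, plus strand), was at 4.81 and 4.92 log2 CPM in untreated, 5.64 and 5.71 in rivaroxaban and 5.78 and 5.97 in dabigatran hearts, a rise of 0.91 ± 0.09 (adjusted p = 0.000402). Rsrp1, an arginine- and serine-rich protein, rose by 0.50 ± 0.05. Both kept their call whichever library was left out. The RNA-binding proteins Rbm15 (0.43 ± 0.08), Srsf7 (0.27 ± 0.06) and Rbm5 (0.25 ± 0.05) rose, while Hnrnpdl (-0.25 ± 0.05) fell, and all 4 lost their call without untreated 8.

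Cebpb, a C/EBP transcription factor that acts in acute phase and fat cell programmes, was at 3.71 and 3.13 log2 CPM in untreated, 4.30 and 4.68 in rivaroxaban and 4.82 and 4.06 in dabigatran hearts (1.05 ± 0.20, adjusted p = 0.0244). Cebpa, of the same family, was at 3.14 and 3.23 in untreated and 3.76 to 3.83 log2 CPM in treated hearts (0.60 ± 0.08, adjusted p = 0.00361). Without untreated 8 both had an adjusted p of 0.0636, and without untreated 9 that of Cebpb was 0.187.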
